A study of Mus musculus with 9 samples.

Results

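Potassium channel genes were followed in mouse hippocampus after expression of a CUG repeat RNA and after treatment with CWG-cPIP, a cyclic pyrrole-imidazole polyamide that binds CAG/CTG repeat DNA. The members were the genes whose symbol begins with Kcn, then further letters and then a digit, 97 of the 24411 genes listed. Of these, 93 code for protein, 77 for pore-forming subunits and 16 for auxiliary subunits, and 4 are antisense RNAs. They fall into 20 protein-coding subfamilies. RNA came from whole hippocampus of 9 male C57BL/6J mice of wild-type genotype, 3 per group, at 10 days after injection of AAV9 into CA1 of both hemispheres. Mice were 9 weeks old at injection by the study's methods, and 10 weeks is the age in the labels. CUG10 mice received AAV9 carrying Egfp with 10 CTG repeats in its 3′-UTR, together with vehicle. CUG300 mice received the same vector with 300 CTG repeats, together with vehicle or with CWG-cPIP at 83 μg/kg. Every mouse therefore carried the viral Egfp vector and had surgery, and neither an uninjected mouse nor a CUG10 mouse given CWG-cPIP was analysed here. The repeat sits in a transgene and not in an endogenous gene, and transduced and untransduced cells are mixed in each sample. The question addressed was whether channel transcripts differed between CUG300 and CUG10 mice, and whether they differed with CWG-cPIP.

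Potassium channels let potassium ions leave a neuron along their gradient, and so set its resting potential, shorten its action potentials and space its spikes. Voltage-gated (Kv) subunits assemble as tetramers that open on depolarization, calcium- and sodium-activated subunits follow intracellular ions, inward rectifiers (Kir) stabilize the resting potential or answer to G proteins and ATP, and two-pore-domain (K2P) subunits carry leak current. Silent Kv subunits do not make a channel alone and alter the Kv2 channels they join, and auxiliary subunits alter trafficking and gating. In the hippocampus, Kv4 channels shape dendritic excitability of CA1 pyramidal cells, Kv7 channels carry the M-current and glia use Kir channels to clear potassium.

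Because CWG-cPIP binds CAG/CTG DNA, the transcripts of the members were searched for uninterrupted runs of the letters CAG or CTG, read on the sense strand of GENCODE vM21 transcripts (GRCm38). A run of at least 5 units was found in 6 of the 79 members tested below (7.59%), against 486 of 14746 tested genes with a transcript (3.30%). The 6 runs are shown with the repeat in capitals, since these are the longest stretches of the letters of the ligand's target in the transcripts of this family.
Kcna6: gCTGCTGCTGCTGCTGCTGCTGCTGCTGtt
Kcnh3: actgCAGCAGCAGCAGCAGCAGCAGtggca
Kcnn3: gtcgCAGCAGCAGCAGCAGCAGCAGtcgca
Kcnc1: actgtagCAGCAGCAGCAGCAGcaatacaa
Kcnab1: acaatagCTGCTGCTGCTGCTGctttgatc
Kcnk12: gcccctcCTGCTGCTGCTGCTGttgccgcc
The longest run, 9 CTG units, lay in the 5′ UTR of Kcna6 (chr6:126740589-126740615, minus strand). Runs of 7 CAG units lay in the coding sequence of Kcnh3 (chr15:99232790-99232810, plus strand) and of Kcnn3 (chr3:89520667-89520687, plus strand). Runs of 5 units lay in the 3′ UTR of Kcnc1 (chr7:46429184-46429198, plus strand), in the coding sequence of Kcnk12 (chr17:87797378-87797392, minus strand) and in a noncoding transcript of Kcnab1 (chr3:65357814-65357828, plus strand). A run of letters is a description and not a binding site.

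The deposited values are regularized logarithms (rlog, log2 scale) made by DESeq2, which scales the libraries and pulls weakly counted genes toward their mean. Read counts are not part of them, and sequencing depth is therefore unknown. Medians over the 14867 genes tested lay between 8.43 and 8.54 per mouse, and no 2 mice held the same values. Correlation between mice across genes was 0.993 to 0.996 among CUG10 mice, 0.978 to 0.985 among CUG300 vehicle mice and 0.970 to 0.992 among CUG300 mice given CWG-cPIP. The neuron marker list, 8 genes with Snap25 and Rbfox3 among them, was measured in full in every mouse. Nothing states that the mice of a group were from separate litters or that equal replicate numbers belong together.

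Of the 97 members, 79 reached a mean rlog value of log2(10) across all 9 mice and were tested. Among these the mean level ran from 3.70 (Kcnk5) to 13.03 (Kcnab2). The other 18 lay under this minimum, with means from −2.14 to 2.44 on the rlog scale, and no difference was tested for them. Kcnk16 and Kcnmb3 stood at 0 in all 9 mice. The 16 others under the minimum were Kcna7, Kcna10, Kcnd3os, Kcne1, Kcne3, Kcng3, Kcnh6, Kcnh8, Kcnj1, Kcnj15, Kcnk7, Kcnk15, Kcnk18, Kcnmb4os1, Kcnq1 and Kcnv2. Each of the pore-forming classes kept most of its members: 25 of 30 voltage-gated alpha subunits, 8 of 10 silent subunits, 8 of 8 calcium- or sodium-activated subunits, 13 of 15 inward rectifiers and 10 of 14 K2P subunits passed, as did 13 of 16 auxiliary subunits and 2 of 4 antisense RNAs. Per kilobase of exon (mean rlog value minus log2 of the exon length in kb), the highest levels in CUG10 mice were those of Kcnab2 (10.81), Kcnk1 (9.86), Kcnj4 (9.72), Kcnip2 (9.47) and Kcna1 (9.10). Their order rests on 3 mice and on the exon length of all annotated transcripts.

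In CUG300 mice given vehicle, 13 potassium channel transcripts fell relative to CUG10 mice and 2 rose. The fall took in voltage-gated, silent, calcium-activated, inward rectifier, two-pore-domain and Kv beta subunits, each by 0.42 to 0.84 on the log2 scale, whereas the 2 that rose were Kcnn4, the calcium-activated channel of leukocytes and microglia, and Kcne1l, a KCNE auxiliary subunit. The fall was called in 16.5% of the 79 members, against 3.34% of the 14867 genes tested (percent called lower, limma adjusted p under 0.05). The rise was called in 2.53% of the members, against 7.37% of all genes. Of all genes tested, 10.7% were called in either direction. The mean was lower in CUG300 mice in 68 of the 79 members (86.1%, against 51.6% of all genes), and the median difference of the members was −0.38, against −0.01 over all genes. The 3 CUG300 mice all lay below the 3 CUG10 mice in 33 members (41.8%, against 16.7% of all genes) and all above in 3 (3.8%, against 18.2%). At an unadjusted p under 0.05, 35 members were lower (44.3%, against 14.2%) and 4 higher (5.06%, against 16.3%). A further 11 members had an adjusted p between 0.05 and 0.10. In bulk tissue such as this, fewer cells of a type and less RNA per cell cannot be told apart.

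**Figure D1:**
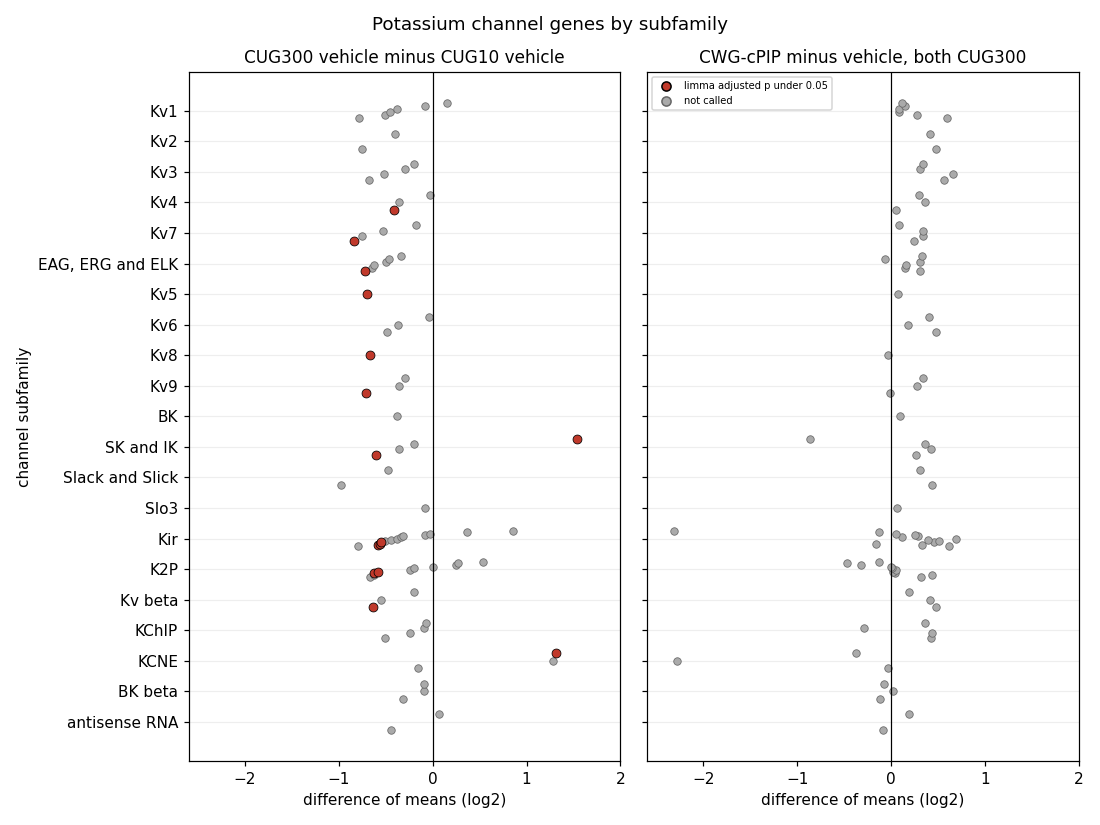
Difference of group means on the log2 scale (x axis) for each of the 79 tested members, by subfamily (y axis), for CUG300 vehicle against CUG10 vehicle (left) and CWG-cPIP against vehicle in CUG300 mice (right), where red points passed limma at an adjusted p under 0.05. On the left 68 points lie below 0 and 15 are red. On the right 62 lie above 0 and none is red.

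The count of 15 rested on few mice. It was 0 without any one of the CUG10 mice and 0 without CUG300 vehicle mouse 3, fits in which between 0 and 2 of all genes were called and 25 to 36 members had an unadjusted p under 0.05. It was 4 without CWG-cPIP mouse 1 (Kcnh3, Kcnj4, Kcnq5 and Kcns1), which enters the shared variance, and 26 without CUG300 vehicle mouse 2. Without the other mice it was 17 to 20. None of the 15 changed direction in any fit without 1 mouse. For the fits that called members, the share of all genes called is not reported here. These counts therefore cannot show a change particular to the members.

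The members were not equally low in the 3 CUG300 vehicle mice. Over the 79 members, the median distance from the CUG10 mean was −0.42, −0.16 and −0.54 in CUG300 vehicle mice 1, 2 and 3, while over all genes tested it was 0.00, −0.01 and −0.01. In the mice given CWG-cPIP it was −0.11, 0.05 and −0.34. Mouse 2 of each CUG300 group was thus nearest to the CUG10 mice and mouse 3 farthest.

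**Figure D2:**
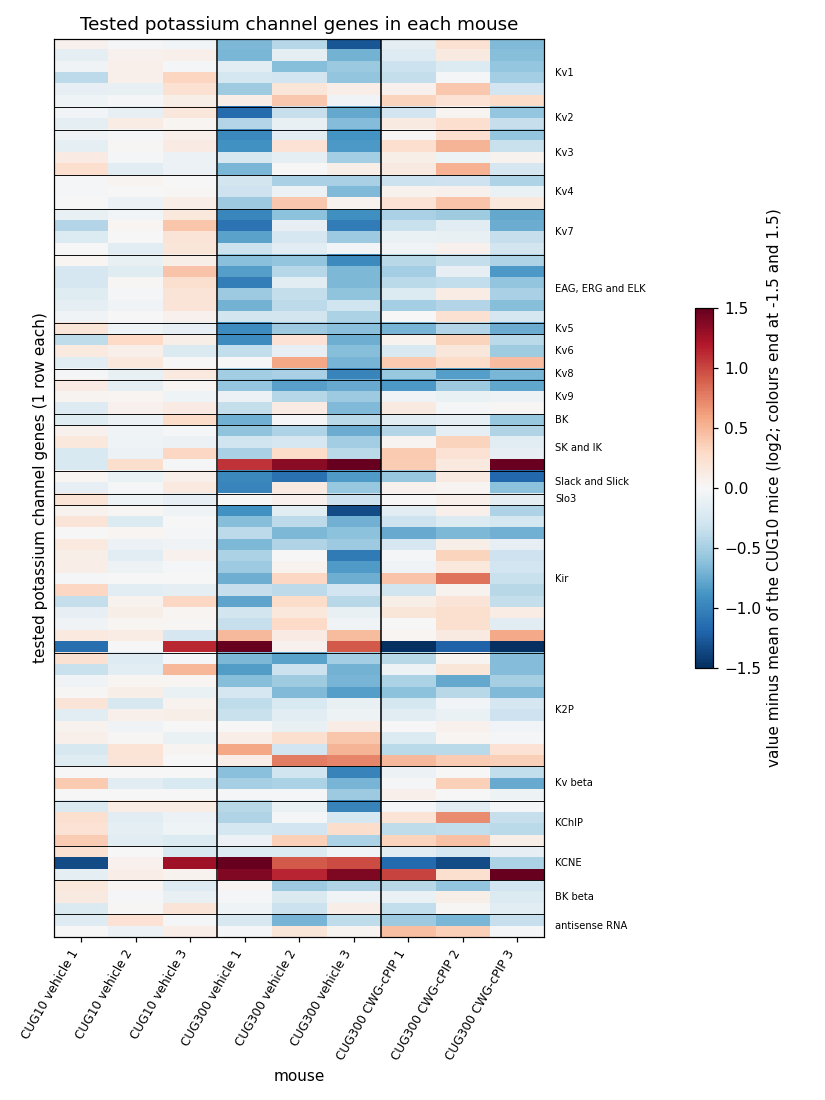
Heat map of the 79 tested members (rows, grouped by subfamily) in each mouse (columns, 3 groups of 3), coloured by the value minus the mean of the CUG10 mice on the log2 scale. Blue prevails in CUG300 vehicle mice 1 and 3, whose member medians were −0.42 and −0.54, and is paler in mouse 2 at −0.16.

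Several marker lists, neuronal and glial, had negative median differences between CUG300 and CUG10 vehicle mice, and others did not. Beside the counts called in these lists, 7.37% of all genes were called higher and 3.34% lower. Summed over the 8 genes of the neuron list, the level (log2 of summed linear values) was 17.04, 16.98 and 17.02 in the CUG10 mice, 16.59, 16.89 and 16.41 in the CUG300 vehicle mice and 16.96, 16.92 and 16.73 with CWG-cPIP. The list's median difference between CUG300 and CUG10 mice was −0.38, equal at this precision to that of the potassium channel genes, and 1 of its 8 genes was called lower (Syt1, −0.51). Interneuron markers had a median of −0.51 with 0 of 6 called, and cortex and striatum markers −0.65 with 1 of 5 called lower. Of the lists for hippocampal principal cells, CA1 pyramidal markers had a median of −0.12 with 2 of 6 called lower (Fibcd1 and Mpped1), CA3 pyramidal markers −0.074 with 0 of 5 called and dentate granule cell markers −0.012 with 0 of 5 called. Thalamus and habenula markers had a median of 0.35 with 0 of 4 called. Markers of the oligodendrocyte lineage had medians beyond that of the neuron list, −0.58 for oligodendrocytes (0 of 5 called, all 5 means lower) and −0.75 for their precursors (0 of 4 called, all 4 means lower and at an unadjusted p under 0.05). Astrocyte markers were split, with 3 means higher and 3 lower, 2 of 6 called higher (Gfap, 1.21, and Aqp4, 0.91), Slc1a2 at −0.85 without passing the test and a median of 0.22. Medians were 0.52 for microglia (3 of 7 called higher) and 2.82 for monocytes and T cells (4 of 5 called higher). They were 0.54 for endothelial cells and −0.0041 for mural cells, with 0 called in either list. The part of these shifts in the channel differences was not tested.

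Among the voltage-gated alpha subunits, 3 of 25 fell, 0 rose and 24 had a lower mean (median −0.47). Of all genes, 3.34% were called lower and 51.6% had a lower mean. Kcnq5 (chr1:21398403-21961942), a subunit of the Kv7 channels that carry the M-current, stood at 9.59, 9.65 and 9.85 in CUG10 mice, 8.72, 9.07 and 8.77 in CUG300 vehicle mice and 9.21, 9.16 and 8.92 in CUG300 mice given CWG-cPIP. No CUG300 mouse of either treatment reached a CUG10 mouse. The difference between CUG300 and CUG10 vehicle mice was −0.84 (SE 0.13, adjusted p = 0.0207), the most negative among the called members, which left 0.559-fold the CUG10 level. Its partner Kcnq3 had the same sign without passing the test, with a difference of −0.76 (adjusted p = 0.133).

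Kcnh3 (chr15:99224861-99242817), an ELK channel of forebrain neurons and one of the genes with a CAG run above, stood at 10.78, 10.63 and 10.83 in CUG10 mice, 10.12, 10.15 and 9.79 in CUG300 vehicle mice and 10.33, 10.39 and 10.28 in CUG300 mice given CWG-cPIP. All values of the vehicle-treated CUG300 mice lay below those of mice given CWG-cPIP, and these below those of the CUG10 mice. It fell by 0.72 (SE 0.11, adjusted p = 0.0207) to 0.605-fold the CUG10 level. The 6 tested EAG, ERG and ELK genes all had an unadjusted p under 0.05 for a lower level in CUG300 mice (14.2% of all genes did), with differences from −0.72 to −0.34, but only Kcnh3 passed the adjusted test. Kcnh1 differed by −0.62 (adjusted p = 0.0864), Kcnh7 by −0.65 (adjusted p = 0.102) and Kcnh2, the ERG subunit known from the heart, by −0.34 (adjusted p = 0.121).

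Kcnd1 (chrX:7822289-7838280), a Kv4 subunit of A-type channels, stood at 7.04, 7.11 and 7.07 in CUG10 mice, 6.79, 6.59 and 6.58 in CUG300 vehicle mice and 6.75, 6.76 and 6.61 in CUG300 mice given CWG-cPIP. The CUG10 mice lay within a narrow range and both CUG300 groups lay below it. The difference was −0.42 (SE 0.11, adjusted p = 0.0442). Kcnd2, the main Kv4 subunit of CA1 dendrites, differed by −0.36 (adjusted p = 0.114), and for Kcnd3 it was −0.03 (adjusted p = 0.933) with a 95% interval from −0.50 to 0.44. Whether the 3 differ among themselves was not tested.

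In the Kv1, Kv2 and Kv3 subfamilies 0 members passed the adjusted limma test. An unadjusted p under 0.05 was reached by 6 of the 12 genes tested, each with a lower mean (14.2% of all genes were lower at this p). Kcna2, an axonal Kv1 subunit, stood at 11.45, 11.38 and 11.35 in CUG10 mice, 10.73, 10.97 and 10.12 in CUG300 vehicle mice and 11.26, 11.62 and 10.73 in CUG300 mice given CWG-cPIP. The 3 CUG300 vehicle mice lay below all CUG10 mice, with mouse 3 lowest, for a difference of −0.79 (adjusted p = 0.0737). Its axonal partner Kcna1 differed by −0.51 (adjusted p = 0.142), and Kcna6 by −0.45 (adjusted p = 0.0751). Kcna4 was the one Kv1 gene with a higher mean, by 0.15 (adjusted p = 0.435). Kcnc1, which lets fast-spiking interneurons repolarize quickly, differed by −0.68 (adjusted p = 0.107), with CUG300 vehicle mice 1 and 3 at 9.94 and 10.01 and mouse 2 at 10.74, nearer to the CUG10 values of 10.85 to 10.99. Its relatives Kcnc2 and Kcnc4 differed by −0.30 and −0.20.

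Of the 8 silent subunits tested, 3 fell (against 3.34% of all genes) and all 8 had a lower mean (against 51.6%), with a median of −0.43. Kcnf1 (chr12:17172100-17176888), the only Kv5 gene, stood at 10.30, 10.06 and 10.00 in CUG10 mice, 9.17, 9.58 and 9.49 in CUG300 vehicle mice and 9.42, 9.68 and 9.38 in CUG300 mice given CWG-cPIP. The difference was −0.71 (SE 0.14, adjusted p = 0.0246). Kcns1 (chr2:164163619-164171113), a Kv9 gene, stood at 7.98, 7.72 and 7.89 in CUG10 mice, 7.28, 7.05 and 7.11 in CUG300 vehicle mice and 7.00, 7.32 and 7.08 in CUG300 mice given CWG-cPIP, a difference of −0.72 (SE 0.13, adjusted p = 0.0225). Kcnv1 (chr15:45106284-45114920), a Kv8 gene, stood at 9.52, 9.45 and 9.69 in CUG10 mice, 9.03, 9.06 and 8.57 in CUG300 vehicle mice and 8.98, 8.73 and 8.87 in CUG300 mice given CWG-cPIP, a difference of −0.67 (SE 0.15, adjusted p = 0.0302). In these 3 genes every CUG300 mouse lay below every CUG10 mouse, and the treated mice overlapped the vehicle-treated CUG300 mice. The other silent subunits did not pass the test: Kcns3 differed by −0.35 (adjusted p = 0.111) and Kcns2 by −0.30 (adjusted p = 0.298), while in Kv6 the differences were −0.49 for Kcng1, −0.38 for Kcng4 and −0.04 for Kcng2.

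Calcium- and sodium-activated subunits split between 1 that rose and 1 that fell, out of 8, beside 7.37% of all genes called higher and 3.34% called lower. Kcnn1 (chr8:70842049-70863258), a small-conductance channel that takes part in the afterhyperpolarization, stood at 8.18, 8.06 and 8.09 in CUG10 mice, 7.51, 7.64 and 7.37 in CUG300 vehicle mice and 7.68, 7.98 and 7.66 in CUG300 mice given CWG-cPIP. CUG300 mice given vehicle were lowest, those given CWG-cPIP in between and CUG10 mice highest, without overlap. Its difference was −0.60 (SE 0.13, adjusted p = 0.0265), and that of Kcnn2, the highest of the small-conductance genes per kilobase, was −0.36 (adjusted p = 0.137). Kcnt1, a sodium-activated channel (Slack), had the most negative difference of any member, −0.98 (adjusted p = 0.0519), which did not pass the threshold. It stood at 8.93, 8.80 and 8.98 in CUG10 mice, 7.93, 7.79 and 8.05 in CUG300 vehicle mice and 8.33, 9.04 and 7.73 in CUG300 mice given CWG-cPIP, so the vehicle-treated groups did not overlap, while the treated mice spanned the range of both. Kcnma1, the pore of the large-conductance BK channel, differed by −0.38 (adjusted p = 0.228), and Kcnu1, known from sperm, by −0.08 (adjusted p = 0.730).

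**Figure D3:**
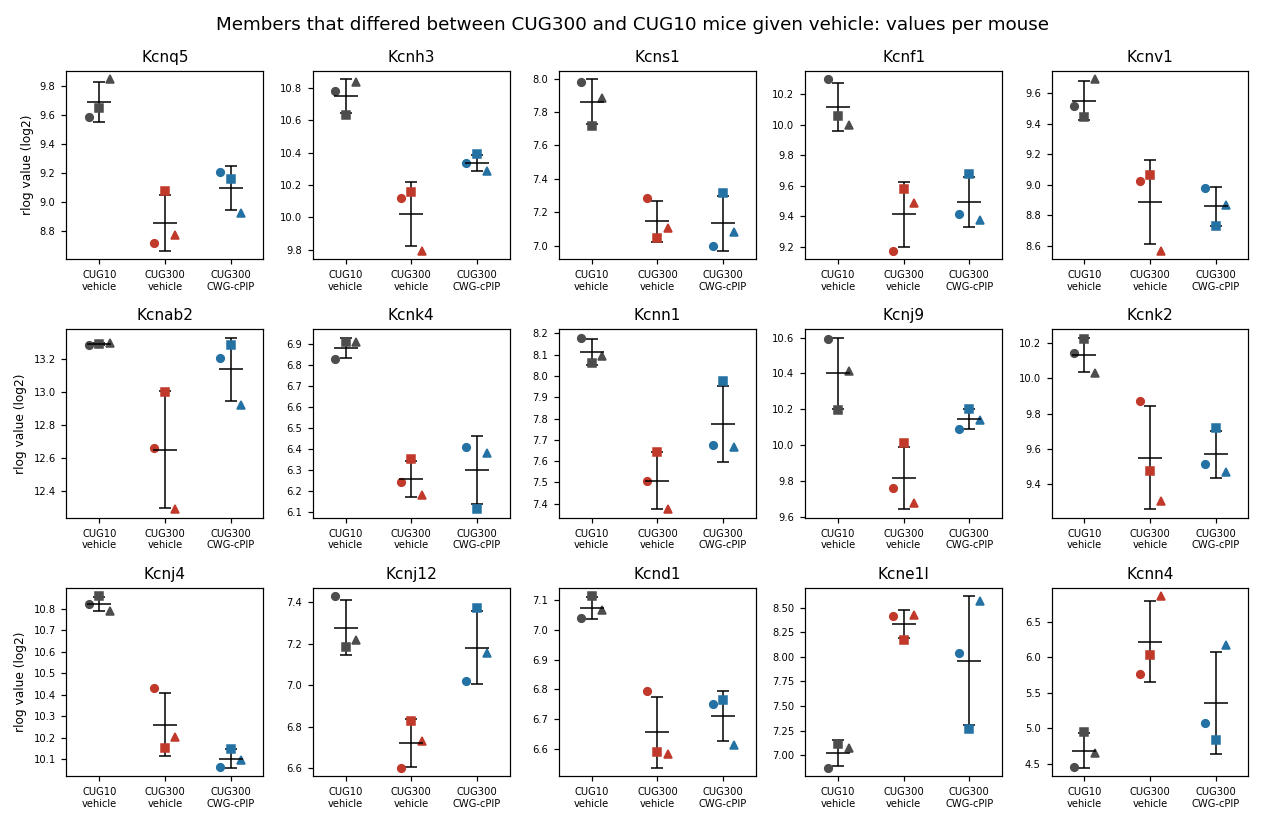
Values (rlog, log2 scale, y axis starting at a different level in each panel) of the 15 called members in each mouse, by group (x axis), with circles, squares and triangles for mice 1, 2 and 3 and a bar with whiskers for the mean and SD of 3 mice. In the 13 genes that fell, CUG300 vehicle mice lie below all CUG10 mice, and in Kcne1l and Kcnn4 above them.

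Among 13 inward rectifiers, 3 fell and 0 rose, beside 3.34% of all genes called lower and 7.37% called higher. Kcnj4 (chr15:79483714-79505241), a strong rectifier of the Kir2 type found in forebrain neurons, stood at 10.82, 10.86 and 10.79 in CUG10 mice, 10.43, 10.15 and 10.20 in CUG300 vehicle mice and 10.06, 10.15 and 10.10 in CUG300 mice given CWG-cPIP. Both CUG300 groups lay below the CUG10 mice, and the treated mice lay lowest. The difference was −0.56 (SE 0.09, adjusted p = 0.0211). Kcnj12 (chr11:61022564-61071131), also of the Kir2 type, stood at 7.43, 7.18 and 7.22 in CUG10 mice, 6.60, 6.83 and 6.73 in CUG300 vehicle mice and 7.02, 7.37 and 7.15 in CUG300 mice given CWG-cPIP, with the vehicle-treated CUG300 mice below every other mouse, and differed by −0.56 (SE 0.13, adjusted p = 0.0352). Kcnj2, another Kir2 gene, present in many cell types, differed by −0.03 (adjusted p = 0.915), with a 95% interval from −0.43 to 0.36. Kcnj9 (chr1:172320501-172329318), a subunit of the G protein-gated GIRK channels that act downstream of GABA-B receptors, stood at 10.59, 10.20 and 10.41 in CUG10 mice, 9.76, 10.01 and 9.68 in CUG300 vehicle mice and 10.09, 10.20 and 10.14 in CUG300 mice given CWG-cPIP. It differed by −0.59 (SE 0.13, adjusted p = 0.0273). The other GIRK subunits did not pass the test: Kcnj3 differed by −0.45 (adjusted p = 0.185), Kcnj6 by −0.31 (adjusted p = 0.483) and Kcnj5 by −0.08 (adjusted p = 0.691). Kcnj11, the pore of the ATP-sensitive channel, stood at 9.09, 9.06 and 8.98 in CUG10 mice, 8.14, 8.89 and 7.70 in CUG300 vehicle mice and 8.88, 9.12 and 8.57 in CUG300 mice given CWG-cPIP, a difference of −0.80 (adjusted p = 0.0835) with CUG300 vehicle mouse 2 closest to the CUG10 mice.

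Beside 3.34% of all genes called lower and 7.37% called higher, 2 of 10 two-pore-domain subunits fell and 0 rose. Both are mechano- and lipid-sensitive channels of the TREK and TRAAK type. Kcnk2 (chr1:189207930-189402273) stood at 10.14, 10.22 and 10.03 in CUG10 mice, 9.88, 9.47 and 9.31 in CUG300 vehicle mice and 9.52, 9.72 and 9.47 in CUG300 mice given CWG-cPIP, a difference of −0.58 (SE 0.15, adjusted p = 0.0406). Kcnk4 (chr19:6923966-6934515) stood at 6.83, 6.91 and 6.91 in CUG10 mice, 6.24, 6.35 and 6.18 in CUG300 vehicle mice and 6.41, 6.11 and 6.38 in CUG300 mice given CWG-cPIP, a difference of −0.62 (SE 0.12, adjusted p = 0.0235). In both, every CUG300 mouse lay below every CUG10 mouse. The third gene of this type, Kcnk10, had a difference of 0.00 (adjusted p = 0.984) with a 95% interval from −0.23 to 0.23. Its mean level over the 9 mice was 5.42, below Kcnk2 (9.75) and Kcnk4 (6.48). Since rlog pulls weakly counted genes toward their mean, a difference in Kcnk10 may be understated. Kcnk3 and Kcnk9, the acid-sensitive TASK channels, differed by −0.66 (adjusted p = 0.0556) and −0.62 (adjusted p = 0.156). Kcnk1, the K2P gene with the highest level per kilobase, differed by −0.20 (adjusted p = 0.254). Kcnk6 had the largest positive difference of this class, 0.53 (adjusted p = 0.0954).

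Among 13 auxiliary subunits, 1 fell and 1 rose, beside 3.34% of all genes called lower and 7.37% called higher. Kcnab2 (chr4:152390742-152477871), a beta subunit of Kv1 channels and the member with the highest level per kilobase, stood at 13.29, 13.29 and 13.30 in CUG10 mice, 12.66, 13.00 and 12.29 in CUG300 vehicle mice and 13.21, 13.28 and 12.92 in CUG300 mice given CWG-cPIP. The CUG10 mice were nearly equal, whereas the CUG300 vehicle mice spread from 12.29 to 13.00 below them. It fell by 0.64 (SE 0.17, adjusted p = 0.0467). The other beta subunits Kcnab3 and Kcnab1 differed by −0.56 (adjusted p = 0.197) and −0.20 (adjusted p = 0.361). Kcne1l (chrX:142304752-142306294), also named Kcne5 and known to inhibit the Kcnq1 channel, stood at 6.87, 7.12 and 7.08 in CUG10 mice, 8.41, 8.17 and 8.43 in CUG300 vehicle mice and 8.04, 7.27 and 8.57 in CUG300 mice given CWG-cPIP. It was higher in every CUG300 mouse than in any CUG10 mouse, with treated mouse 2 nearest to them. The difference was 1.31 (SE 0.28, adjusted p = 0.0267), 2.48-fold. KChIP genes, which bind Kv4 channels, differed by −0.51 (Kcnip2) to −0.07 (Kcnip4) and none passed. Kcnmb4, the neuronal beta subunit of BK channels, differed by −0.32 (adjusted p = 0.221), and its antisense RNA Kcnmb4os2 by −0.44 (adjusted p = 0.111). The 2 overlap in the annotation, and since the use of strand in counting is not stated, their reads may not be told apart. The antisense RNA Kcnq1ot1, from the Kcnq1 locus, differed by 0.07 (adjusted p = 0.768). Of the called members, Kcnab2, Kcnh3, Kcnj9, Kcnk2, Kcnk4, Kcnn1 and Kcnq5 also share exon bases with another annotated gene, from 1 base (Kcnh3) to 604 bases (Kcnk2). For Kcnk4 (587 bases, with Catsperz) and Kcnab2 (125 bases, with Gm16334) the other gene lies on the same strand, so strand cannot separate their reads. For the others it lies on the opposite strand. The study's methods name a directional library kit, but whether strand was used in counting is not given in the sources used here.

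When CUG300 mice given CWG-cPIP were set against those given vehicle, 0 of 79 members passed limma at an adjusted p under 0.05, as did 0 of 14867 genes (0%). At an unadjusted p under 0.05, 11 members were higher (13.9%, against 5.23% of all genes) and 4 lower (5.06%, against 3.6%). The 3 treated mice all lay above the 3 vehicle-treated mice in 7 members (8.86%, against 4.97% of all genes) and all below in 5 (6.33%, against 3.5%). The mean was higher in 62 members (78.5%, against 49.4%), and the median difference was 0.24, against 0.00 over all genes. The smallest adjusted p was 0.48. These values share the CUG300 vehicle mice with those above, so a low value in these mice lowers the first difference and raises the second.

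Of the 13 members that fell in CUG300 mice, some had values under CWG-cPIP nearer to CUG10 mice and some did not. The differences of CWG-cPIP from vehicle were 0.48 for Kcnab2, 0.46 for Kcnj12, 0.33 for Kcnj9, 0.31 for Kcnh3, 0.27 for Kcnn1 and 0.24 for Kcnq5. They were between −0.16 and 0.08 for Kcnj4 (−0.16), Kcnv1 (−0.03), Kcns1 (−0.01), Kcnk2 (0.02), Kcnk4 (0.04), Kcnd1 (0.05) and Kcnf1 (0.08). The sign of Kcns1 turned after median centering (0.0052) or quantile scaling (0.035). For Kcnj4 the 95% interval ran from −0.37 to 0.05, and for Kcnk4 from −0.22 to 0.31. For Kcnab2 it ran from 0.10 to 0.87, and for Kcnj12 from 0.16 to 0.76. These intervals are not adjusted, and neither gene passed the test (limma adjusted p = 0.483 in both). The 13 members were picked for low values in the same CUG300 vehicle mice, which by itself raises these differences. Whether the first set differs from the second was not tested, since both were read off the same values. Of the 2 members that rose in CUG300 mice, Kcnn4 differed by −0.87 (adjusted p = 0.483) and Kcne1l by −0.38 (adjusted p = 0.516).

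Among the 5 members with the largest positive difference under CWG-cPIP were Kcnj10 (0.69), Kcnj11 (0.62), Kcna2 (0.60) and Kcnc1 (0.57). Kcnj10, the astrocyte channel that takes up potassium, stood at 10.81, 10.83 and 10.83 in CUG10 mice, 10.09, 11.14 and 10.09 in CUG300 vehicle mice and 11.26, 11.64 and 10.49 in CUG300 mice given CWG-cPIP. Vehicle-treated CUG300 mice 1 and 3 lay low, mouse 2 lay above the CUG10 mice, and the groups overlapped. The difference had an unadjusted p of 0.066 (adjusted p = 0.48).

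None of the 6 genes with a CAG or CTG run of at least 5 units was called under CWG-cPIP, where 0 of 14867 genes were. Their differences from vehicle were 0.08 for Kcna6 (9 units), 0.31 for Kcnh3 and 0.37 for Kcnn3 (7 units), and 0.57 for Kcnc1, 0.20 for Kcnab1 and 0.06 for Kcnk12 (5 units), beside a median of 0.24 over the members. None of these 6 had a lower mean in treated than in vehicle-treated CUG300 mice. A higher mean was also the rule among all 79 members (78.5%, against 49.4% of all genes). Whether genes with a run differ from the other members was not tested. For Kcna6 the unadjusted 95% interval ran from −0.24 to 0.41, for Kcnh3 from 0.06 to 0.57 (limma adjusted p = 0.483) and for Kcnn3 from −0.17 to 0.90.

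The comparison of CUG300 mice given CWG-cPIP with CUG10 mice shares the CUG10 mice with the first. It called 0 of 79 members and 0 of 14867 genes (0%). At an unadjusted p under 0.05, 16 members were lower (20.3%, against 5.31% of all genes) and 1 was higher (1.27%, against 8.12%), and the median difference was −0.17, against 0.00. The mean was lower in 54 members (68.4%, against 49.9%). All 3 treated mice lay below all CUG10 mice in 18 members (22.8%, against 12.4%) and above them in 6 (7.59%, against 13.4%). Among the members that fell in CUG300 vehicle mice, the most negative differences here were −0.73 for Kcns1, −0.72 for Kcnj4, −0.69 for Kcnv1, −0.63 for Kcnf1, −0.60 for Kcnq5 and −0.58 for Kcnk4, with adjusted p from 0.088 (Kcnj4) to 0.13. For Kcnab2 and Kcnj12 it was −0.16 and −0.10. An F test between the 3 groups called 0 members and 0 genes, with 35 members at an unadjusted p under 0.05 (23.5% of all genes were) and a smallest adjusted p of 0.055.

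Several potassium channels are known from cells other than neurons. Kcnn4, the intermediate-conductance channel of lymphocytes, monocytes and microglia (chr7:24370263-24386690), stood at 4.46, 4.94 and 4.65 in CUG10 mice, 5.77, 6.03 and 6.86 in CUG300 vehicle mice and 5.07, 4.83 and 6.17 in CUG300 mice given CWG-cPIP. It was higher in each CUG300 vehicle mouse than in any CUG10 mouse, and with CWG-cPIP only mouse 3 was as high. The difference between CUG300 and CUG10 vehicle mice was 1.54 (SE 0.37, adjusted p = 0.0366), 2.9-fold. Monocyte and T cell markers were 7.63, 7.98 and 7.53 in the CUG10 mice, 11.61, 11.46 and 12.17 in the CUG300 vehicle mice and 10.34, 8.52 and 11.96 with CWG-cPIP (log2 of summed linear values). In both CUG300 groups mouse 3 was highest for Kcnn4 and for these markers. The part of such cells in the Kcnn4 difference was not tested. For other channels of immune cells the test was not passed: Kcna3, the T cell Kv1 channel, differed by −0.08 (adjusted p = 0.838), and Kcnk13, the microglial leak channel, by 0.27 (adjusted p = 0.520).

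Kcnj13 and Kcne2 are channel genes of the choroid plexus, the epithelium that secretes cerebrospinal fluid. Kcnj13 stood at 5.41, 6.55 and 7.67 in CUG10 mice, 8.13, 6.61 and 7.46 in CUG300 vehicle mice and 4.99, 5.33 and 4.94 in CUG300 mice given CWG-cPIP. Kcne2 stood at 4.63, 6.03 and 7.24 in CUG10 mice, 7.92, 6.89 and 6.95 in CUG300 vehicle mice and 4.80, 4.63 and 5.49 in CUG300 mice given CWG-cPIP. The CUG10 mice already differed among themselves by over 2 log2 units in both genes, and the treated mice lay below all vehicle-treated CUG300 mice. Between CWG-cPIP and vehicle the difference was −2.31 (adjusted p = 0.483) for Kcnj13 and −2.28 (adjusted p = 0.483) for Kcne2, the 2 most negative of any member, and between CUG300 and CUG10 vehicle mice it was 0.86 (adjusted p = 0.308) and 1.29 (adjusted p = 0.173). Choroid plexus markers, 8 genes led by Ttr, had a summed level (log2) of 10.53, 13.38 and 14.90 in the CUG10 mice, 15.97, 14.03 and 14.87 in the CUG300 vehicle mice and 10.94, 10.54 and 10.85 with CWG-cPIP. Their median difference was −2.10 under CWG-cPIP and 1.03 between CUG300 and CUG10 mice, with 0 of 8 called in either (7 and 0 at an unadjusted p under 0.05). The part of choroid plexus tissue in these 2 channel differences was not tested. Kcnj13 also shares 623 exon bases with Gigyf2 on the other strand.

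**Figure D4:**
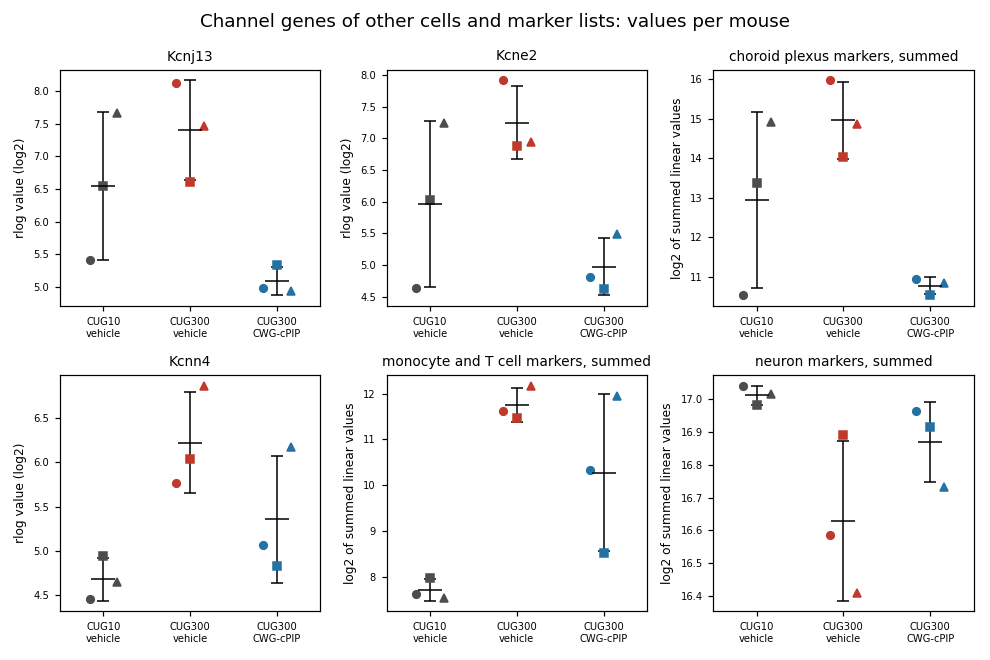
Values per mouse of Kcnj13, Kcne2 and Kcnn4 (rlog, log2 scale) and of 3 marker lists (log2 of summed linear values), by group, with symbols for mice 1, 2 and 3 as circle, square and triangle and a bar with whiskers for mean and SD (n = 3). Kcnj13 and Kcne2 run from 4.63 to 8.13 over the mice beside choroid plexus markers from 10.53 to 15.97. Kcnn4 and the monocyte and T cell markers are both higher in each CUG300 vehicle mouse than in any CUG10 mouse. In CWG-cPIP mouse 1 these markers are at 10.34, above the CUG10 mice (at most 7.98), while Kcnn4 at 5.07 is close to the highest CUG10 value, 4.94.

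Genes that work with potassium channels without being channels of this family were read from 8 lists with 39 genes, of which 37 were tested. Between CUG300 and CUG10 vehicle mice 2 of the 37 fell, beside 3.34% of all genes, and 0 rose (median −0.27). Dpp10, an auxiliary subunit of Kv4 channels, fell by 0.87 (adjusted p = 0.0325), 1 of 3 on its list. Cntn2, which holds Kv1 channels at the axon beside the node of Ranvier, fell by 0.72 (adjusted p = 0.0394), 1 of 8 anchors. In the other lists 0 genes were called: GABA-B receptor and RGS partners of GIRK channels (0 of 8, median −0.26), the sodium-potassium pump (0 of 6, −0.14), potassium-chloride cotransporters (0 of 4, −0.44), HCN cation channels (0 of 4, −0.26), KATP sulfonylurea receptors (0 of 2, −0.16) and BK gamma subunits (0 of 2 tested, −0.25). At an unadjusted p under 0.05 the 37 genes held 10 lower (14.2% of all genes were) and 1 higher (16.3%). Under CWG-cPIP 0 were called, 7 were higher at an unadjusted p under 0.05 (5.23% of all genes) and the median was 0.30.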

How the data were processed

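Per the study's methods and the submitters' processing notes, the authors used Trim Galore 0.6.6 on paired reads, then STAR 2.7.9a with RSEM 1.3.3 (GRCm38/mm10), and DESeq2 1.36.0 for rlog values. These deposited values, on the log2 scale, were used as they stand, 1 per gene and mouse, so no model of counts was run. Neither the annotation nor whether strand was used in counting is given in the sources used here.

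Of 24411 genes listed, 5175 stood at 0 in all mice, and the 14867 whose mean rlog value reached log2(10) across 9 mice were tested. In 27 rows, 23 of them tested, a spreadsheet had turned the symbol into a date. These were kept and are not named. limma 3.58.1 in R 4.3.3 was fitted with 1 mean per group, 1 variance per gene over all 9 mice, a variance trend and 3.03 prior degrees of freedom. Tests were two-sided and adjusted after Benjamini and Hochberg over all genes tested, with 0.05 as the threshold for a call. The procedure was tested on simulated data. P-values set a difference of group means against the spread between these mice, which the fit takes as equal in all groups.

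Members were sorted into subfamilies by symbol. All 97 were matched by symbol to GENCODE vM21 for position, exon length and overlapping exons (32 members share exon bases with another gene). Named genes were all called members, in each subfamily the largest difference between CUG300 and CUG10 vehicle mice and the highest mean, the 5 largest rises and falls under CWG-cPIP, the members under the minimum, textbook channels of other cells, and other members given beside these as relatives. Some genes within this rule are not reported here. The 15 cell type marker lists and 8 partner lists came from textbook knowledge. Members and lists were chosen with earlier results of these data known. Alternatives were other scalings, filters, variance models and thresholds, a fit of only 2 groups, a block for the replicate number, and fits without each mouse in turn.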

Additional observations from a re-analysis of the deposited data

How the results depend on the processing

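The median differences of the members kept their direction and stayed within the spread between mice under all alternatives run, and ranged over fits without 1 mouse from −0.49 to −0.27 for CUG300 against CUG10 vehicle mice, from 0.14 to 0.32 for CWG-cPIP against vehicle and from −0.23 to −0.04 for CWG-cPIP against CUG10. The count of 15 members called between CUG300 and CUG10 vehicle mice was 13 to 20 under other scalings, filters, variance models and with only the groups compared, 14 at a log2 difference over 0.5, and 0 at an adjusted p under 0.01, where 39 members had an unadjusted p under 0.05. Leaving out 1 mouse gave 0 to 26. CWG-cPIP against vehicle called 0 members in every fit run. CWG-cPIP against CUG10 called 1 member with only the groups compared (Kcnj4), and 0 to 5 without 1 mouse. The F test called 5 after median centering (Kcnh3, Kcnj4, Kcnk4, Kcnq5 and Kcns1), and 0 to 11 without 1 mouse. The cause was not tested. For the alternative fits that called members, the share of all genes called is not reported here. Their counts therefore cannot show a change particular to the members. A minimum of log2(100) put 41 members under it in place of 18.

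The replicate number as a block called 15 members, 13 of them among the 15, and 0 in the other comparisons. Whether the numbers pair the mice cannot be settled here, since deviations from a mean of 3 mice depend on one another. Of 9 pairs of mice with the same number, 3 had deviations correlated over 0.1 (r from −0.50 to 0.41). No mouse correlated best with its own number in both other groups. Between the 2 CUG300 groups, r was −0.18 for mice 1, 0.40 for mice 2 and 0.41 for mice 3.

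Differences near 0 changed sign. For CWG-cPIP against vehicle, Kcns1 went from −0.01 to 0.0052 after median centering and to 0.035 after quantile scaling. Without 1 mouse it ranged from −0.10 to 0.058, Kcnf1 from −0.042 to 0.16, Kcnk2 from −0.10 to 0.18, Kcnk4 from −0.012 to 0.14 and Kcnv1 from −0.19 to 0.061. For CUG300 against CUG10 vehicle mice, Kcna3 ranged from −0.22 to 0.14, Kcng2 from −0.35 to 0.30, Kcnj2 from −0.20 to 0.12 and Kcnu1 from −0.15 to 0.036. With 3 mice per group and no read counts, the depth behind each value cannot be weighed, and rlog shrinks the differences of weakly counted members.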
